A study of Mus musculus with 8 samples.

Results

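The proteasome subunit genes of mouse preimplantation embryos were examined in control embryos and in embryos cultured with trimetazidine (TMZ), an inhibitor of fatty acid oxidation. Members were the protein-coding genes whose symbol is Psma, Psmb, Psmc or Psmd followed by a number, of which the GENCODE vM39 annotation lists 39. The deposited expression tables name no genes, so each row was matched to a gene by its order and by the gene length recovered from its values, and only matches with a posterior probability of 0.95 or more were used. By this rule 35 of the 39 members were found among 31899 rows of the 8-cell table and 32 among 29202 rows of the morula table. Both tables together shared 31 members, and 3 members (Psma2, Psmb1 and Psmb2) were found in neither.

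RNA was sequenced from 8-cell embryos, collected 70 h after injection of human chorionic gonadotropin, and from morulae, collected at 78 h. Embryos of 7-week-old ICR mice, without genetic modification, were kept in KSOM medium, and per the labels the TMZ groups received 100 μM TMZ at the 2-cell stage, while the methods of the study also name the zygote stage as a start of inhibitor treatment. Each of the 4 groups (8-cell control, 8-cell TMZ, morula control and morula TMZ) holds 2 libraries, prepared with a kit that amplifies whole mRNAs. The study asks what blocking fatty acid oxidation does to these embryos. In the 8-cell table the TMZ columns have identical headers. Their libraries are therefore named A and B, without a replicate number. The labels do not say how many embryos or litters stand behind a library, and the methods of the study speak of 6 biological replicates without saying how these relate to the 2 libraries of a group, so the p-values measure the spread between libraries, which may be technical.

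The proteasome degrades proteins that carry ubiquitin chains. Its 20S core is a barrel of stacked rings, with Psma genes encoding the outer alpha rings and Psmb genes the inner beta rings, where the cutting sites lie. The 19S regulatory particle caps the core. Its Psmc subunits form a ring of ATPases that unfolds substrates, and its Psmd subunits bind ubiquitin, remove it or hold the lid together. In early embryos the ubiquitin-proteasome system takes part in clearing maternal proteins.

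Levels are given as FPKM, fragments divided by gene length and by the library total. Library totals recovered from the values ranged from 31672356 to 64814423 fragments, the highest being 8-cell TMZ library B. A tested member rested on 539 to 83279 fragments in an 8-cell library and on 785 to 52410 in a morula library, so counting error was small beside the spread between libraries. The match to genes was checked on genes with known behaviour. In the 8-cell table a mean of 1 FPKM or more was reached by 70 of 70 matched ribosomal protein genes of the cytosol and by 5 of 274 olfactory receptors. Low means of 1.36 and 3.24 FPKM were found in the 8-cell rows matched to Gapdh and Tuba1b, which most cells express strongly. Of their exonic 31-base stretches, 27.8% of Gapdh and 47.4% of Tuba1b also occur elsewhere in the genome, and whether this or a wrong match lies behind the low values was not tested. Markers of the embryo were present, with Dppa3 between 10695 and 19500 FPKM in the 8-cell libraries. Markers of cumulus and granulosa cells were at or near 0: none of the 2 matched at the 8-cell stage (of 8 listed) reached a mean of 1 FPKM, and Fshr did not exceed 0.013 FPKM there.

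Most proteasome genes were strongly expressed in every library. Of the 31 members tested at the 8-cell stage (mean of at least 1 FPKM), 21 had a mean of at least 100 FPKM, 9 lay between 10 and 100 FPKM, and 1 was below 10 FPKM. The tested members stood above 86.4% to 99.8% of all detected genes. The highest was Psma6, an alpha ring subunit, with 1087 and 1200 FPKM in the control libraries and 992.7 and 1041 FPKM in TMZ A and TMZ B. At the morula stage Psma6 was again the highest member, at 1180 and 937 FPKM in control and 1264 and 1341 FPKM in TMZ. Next in order of mean level per length at the 8-cell stage came Psma5 (528.0 FPKM), the lid subunit Psmd7 (458.7 FPKM) and the ATPase Psmc5 (416.2 FPKM), and the ranges of Psmd7 and Psmc5 overlapped across libraries. The lowest tested member was Psmd9, a 19S assembly chaperone, with a mean of 9.10 FPKM.

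Members with tissue-restricted roles were near the floor. Psma8, an alpha subunit known from testis, ranged between 0.235 and 0.741 FPKM among 8-cell libraries and between 0.304 and 0.587 FPKM among morulae. Psmb11, the beta subunit of the thymus, had 0.112 to 0.190 FPKM at the 8-cell stage. In morulae Psmb11 had 8 and 6 fragments in control and 36 and 40 fragments in TMZ, a separation at a level far below the filter of 1 FPKM. The immunoproteasome subunits Psmb8 and Psmb9, which replace catalytic subunits in immune cells, were matched above the posterior threshold only in the 8-cell table. There Psmb8, the lowest member of that table, had 5, 16, 0 and 13 fragments in control 1, control 2, TMZ A and TMZ B, and Psmb9 had 27, 28, 0 and 16. These 4 genes were not tested. Psmb10, the third immunoproteasome subunit, was the exception, with 6.68 to 22.5 FPKM at the 8-cell stage and 14.0 to 16.0 FPKM in morulae.

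**Figure D1:**
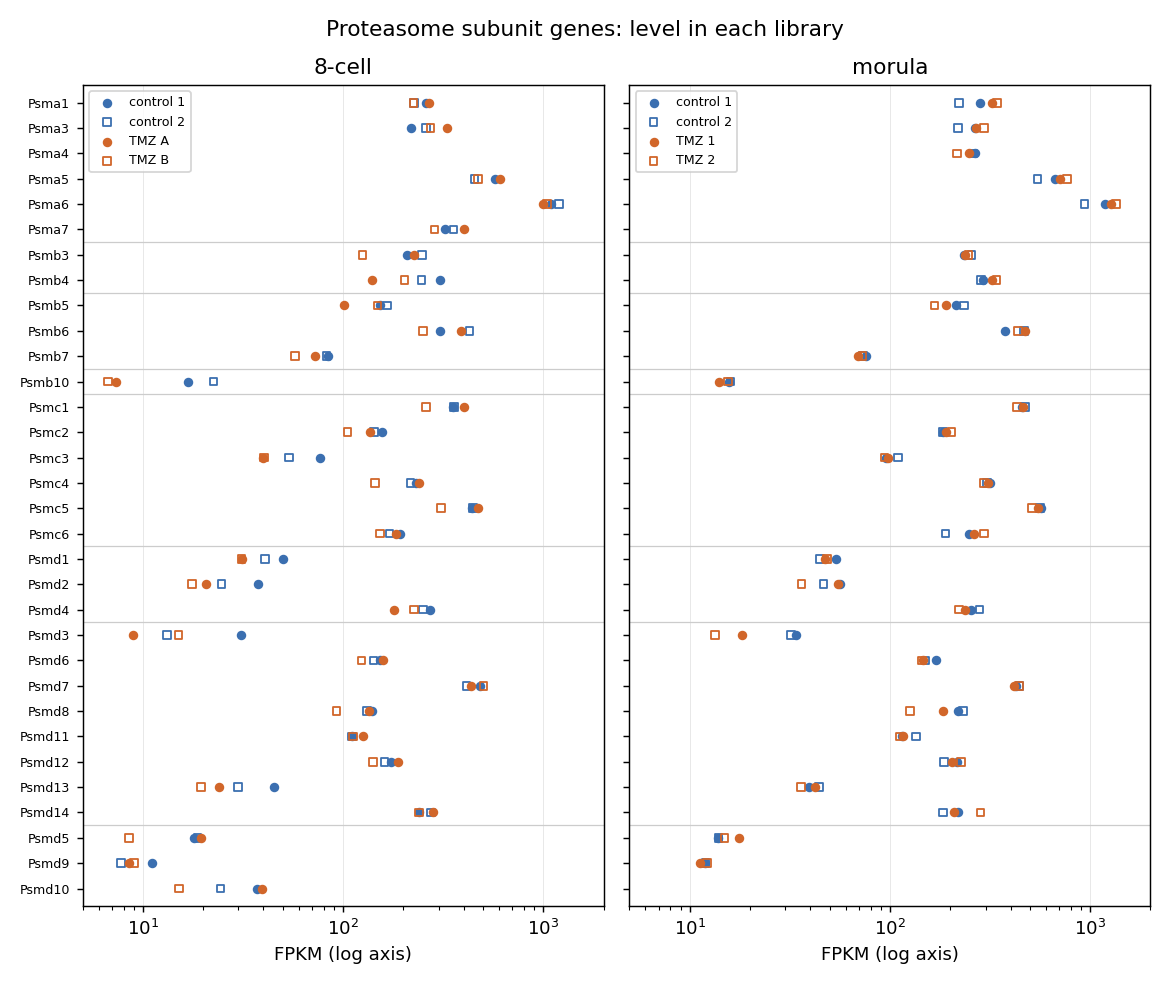
FPKM (log axis) of each proteasome gene with a mean of at least 1 FPKM, in the 4 libraries of the 8-cell stage (left) and of the morula stage (right). Filled and open symbols are the libraries of a group, blue for control and orange for TMZ, and grey lines separate parts of the particle. Psma6 lies highest at both stages, and the Psmb10 points of the 8-cell TMZ libraries lie apart from the controls.

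Many proteasome promoters are known to carry antioxidant response elements, bound by Nfe2l1 (TCF11), which raises proteasome gene transcription when proteasome activity drops. The 250 bases before the start site were searched on both strands in RefSeq promoter windows (build GRCm38.p6), which matched 32 members with 34 windows. The core TGACNNNGC was found in 5 member windows (14.7%), against 10.2% of 32851 windows of all genes. The ETS site CCGGAAG was found in 10 member windows (29.4%), against 6.9% of all. The GC box GGGCGG was present in 52.9% of member windows and 32.7% of all, and CCAAT in 38.2% and 33.8%. A match is a description of the letters and does not show that a factor binds. The 5 members with the TGACNNNGC core are shown because they include catalytic subunits, each read along the motif with the matched letters in capitals.
Psmb5 (chr14:54618023-54618052, minus strand): cgtgaagttgTGACGTCGCggcgttgccag
Psmb6 (chr11:70525327-70525356, plus strand): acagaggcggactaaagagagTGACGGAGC
Psmc6 (chr14:45329587-45329616, minus strand): tgagcaatgccTGACTTAGCtactggctgg
Psmd12 (chr11:107479278-107479307, minus strand): gtctgaggggggcaaatgTGACACAGCaga
Psmd9 (chr5:123228149-123228178, plus strand): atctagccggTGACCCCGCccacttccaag

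Among members with the ETS site, Psma6, the highest member, and Psmc6 and Psmd12, which hold both motifs, are shown with CCGGAAG in capitals. In Psmc6 and Psmd12 the matches of the 2 motifs do not overlap.
Psma6 (chr12:55398682-55398711, plus strand): agagccaccacCCGGAAGcccgcggaccgc
Psmc6 (chr14:45329713-45329742, plus strand): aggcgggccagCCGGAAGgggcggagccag
Psmd12 (chr11:107479498-107479527, minus strand): gtcactcgcaCCGGAAGtcgcccgctcatc

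At the 8-cell stage, 2 proteasome genes were lower in TMZ and none was higher. Calls required P under 0.05 without adjustment together with a log2 fold change of more than 0.5 in either direction. They were made with limma on log2(FPKM + 1), a scale that understates changes of low genes. The 2 of 31 lower members (6.45%) compare with 4.96% of all 10021 rows tested, and 1.35% of all rows were higher. No member, and no row of the table, passed a limma adjusted p of 0.05. Without adjustment, 2 members (6.45%) and 632 rows (6.31%) had P under 0.05, and a voom fit on recovered fragment numbers also left 0 rows past the adjusted threshold.

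Psmb10, which encodes the inducible beta2 subunit, fell most. It had 16.8 and 22.5 FPKM in control and 7.35 and 6.68 FPKM in TMZ libraries A and B, and the groups did not overlap. Its log2 fold change was -1.35 ± 0.35 (SE, limma adjusted p = 0.749). The gene lies on GRCm39 chromosome 8 from 106662362 to 106665077 on the minus strand, and none of its exonic 31-base stretches occurs elsewhere in the genome. Psmb7, the constitutive subunit that Psmb10 can replace, had 84.2 and 82.6 FPKM in control and 72.7 and 57.3 FPKM in TMZ. The level of Psmb10 was thus 19.9% and 27.3% of that of Psmb7 in the control libraries and 10.1% and 11.6% in TMZ libraries A and B. In the 4 morula libraries this share stayed between 20.3% and 21.8%.

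The other called gene was Psmb4, a beta ring subunit without a cutting site, on chromosome 3 from 94781005 to 94794272. It had 303.7 and 245.7 FPKM in control and 139.1 and 202.8 FPKM in TMZ, again without overlap. The log2 fold change was -0.70 ± 0.29 (SE, limma adjusted p = 0.771), and without library A it was -0.43. It no longer passed when library A, control 1 or control 2 was left out, without the filter on low values, or after scaling by median ratios. Psmb3, another beta ring subunit without a cutting site, had 208.0 and 246.8 FPKM in control and 224.7 and 124.9 FPKM in TMZ, so that only library B lay below both controls.

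The cutting subunits did not pass the test. Psmb5, the chymotrypsin-like subunit, had 153.2 and 165.4 FPKM in control and 100.9 and 148.3 FPKM in TMZ (log2 fold change -0.38 ± 0.29, SE). Psmb6, the caspase-like subunit, overlapped between groups, with 305.0 and 427.8 FPKM in control and 387.7 and 250.5 FPKM in TMZ. Both TMZ values of Psmb5 and of Psmb7, the trypsin-like subunit, lay below both controls. For Psmb5, 59.0% of the exonic stretches occur elsewhere in the genome, and its row was matched at a posterior of 0.959 with a recovered length of 899 bases against 1701 in the annotation, so its values are uncertain.

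The 5 matched alpha ring genes had a median log2 fold change of 0.03, 4 of them above 0 and 1 below. Of all rows 69.1% lay below 0. After scaling by median ratios the median was 0.28 with all 5 above 0. Its sign turned on single libraries. The median was -0.11 without library A and -0.07 without control 2, but 0.25 without library B and 0.12 without control 1. Psma3 had the highest log2 fold change of all members, with 219.0 and 258.8 FPKM in control and 331.2 and 273.3 FPKM in TMZ. Its log2 fold change of 0.34 ± 0.26 (SE) did not pass (limma adjusted p = 0.8196), although the groups did not overlap. Psma5 had 576.0 and 453.3 FPKM in control and 610.1 and 472.7 FPKM in TMZ, a difference within the spread of the libraries. Of the exonic stretches of Psma5, 50.5% occur elsewhere in the genome.

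In the 19S particle all 6 ATPases and all 3 other base subunits had log2 fold changes below 0, against 69.1% of all rows. None was called, and after scaling by median ratios only 3 of the 6 ATPases and all 3 other base subunits lay below 0. The ATPase median of -0.24 was -0.51 without library A and 0.05 without library B. Summed over the ATPases, library A held 1474 FPKM and library B 1010 FPKM, against 1450 and 1384 FPKM in the controls. The base subunits that bind ubiquitin or shuttling proteins had a median of -0.53, or -0.28 after that scaling. In each of Psmd1, Psmd2 and Psmd4 both TMZ libraries lay below both controls, as in 29.6% of all rows. The ATPase with the lowest value was Psmc3, at 76.4 and 53.5 FPKM in control and 39.9 and 40.2 FPKM in TMZ (log2 fold change -0.66 ± 0.31, SE, limma adjusted p = 0.771). The lid was mixed, with 5 of 8 genes below 0 (3 of 8 after that scaling) and a median of -0.05. Psmd3, a structural lid subunit, had 30.8 and 13.2 FPKM in control and 8.92 and 15.1 FPKM in TMZ, so its log2 fold change of -0.75 ± 0.46 (SE) rested on groups that overlapped. Psmd13, another lid subunit, had 44.9 and 29.8 FPKM in control and 23.9 and 19.5 FPKM in TMZ, without overlap (log2 fold change -0.73 ± 0.34, SE, limma adjusted p = 0.771). Psmd11 had 110.8 and 110.6 FPKM in control and 125.9 and 111.7 FPKM in TMZ, a log2 fold change of 0.10. Psmd14, the enzyme that removes ubiquitin chains, and Psmd6, Psmd7, Psmd8 and Psmd12 lay between -0.28 and 0.07.

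Over all tested members, 24 of 31 had a log2 fold change below 0, or 16 of 31 after scaling by median ratios, and the median was -0.27, beside -0.19 over all rows. In 11 members (35.5%) both TMZ libraries lay below both controls, against 29.6% of all rows, and in 2 (6.5%) both lay above, against 8.09%. After scaling by median ratios, which moved the median of all rows from -0.19 to 0.01, the median of the members was -0.02. Under that scaling Psmb10 alone was called, and higher rows made up 48.9% of all calls instead of 21.4%.

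The 8-cell TMZ libraries differed from each other by a median of 0.361 on the log2 scale over the members, less than the 0.456 over all rows. In 23 of 31 members library B lay below library A, whereas 36.4% of all rows did. Without library A, 7 members were called lower (Psmb10, Psmb3, Psmc4, Psmc5, Psmd5, Psmd10 and Psmd13), 22.6% of members beside 5.24% of all rows. Without library B, 4 were called lower (Psmb10, Psmb4, Psmb5 and Psmd3), 12.9% of members beside 15.4% of all rows. Psmb10 alone was called in both cases, and without control 2 its log2 fold change of -1.15 did not pass. Psmd10, known as gankyrin, had 37.1 and 24.4 FPKM in control and 39.3 and 15.1 FPKM in TMZ libraries A and B.

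**Figure D2:**
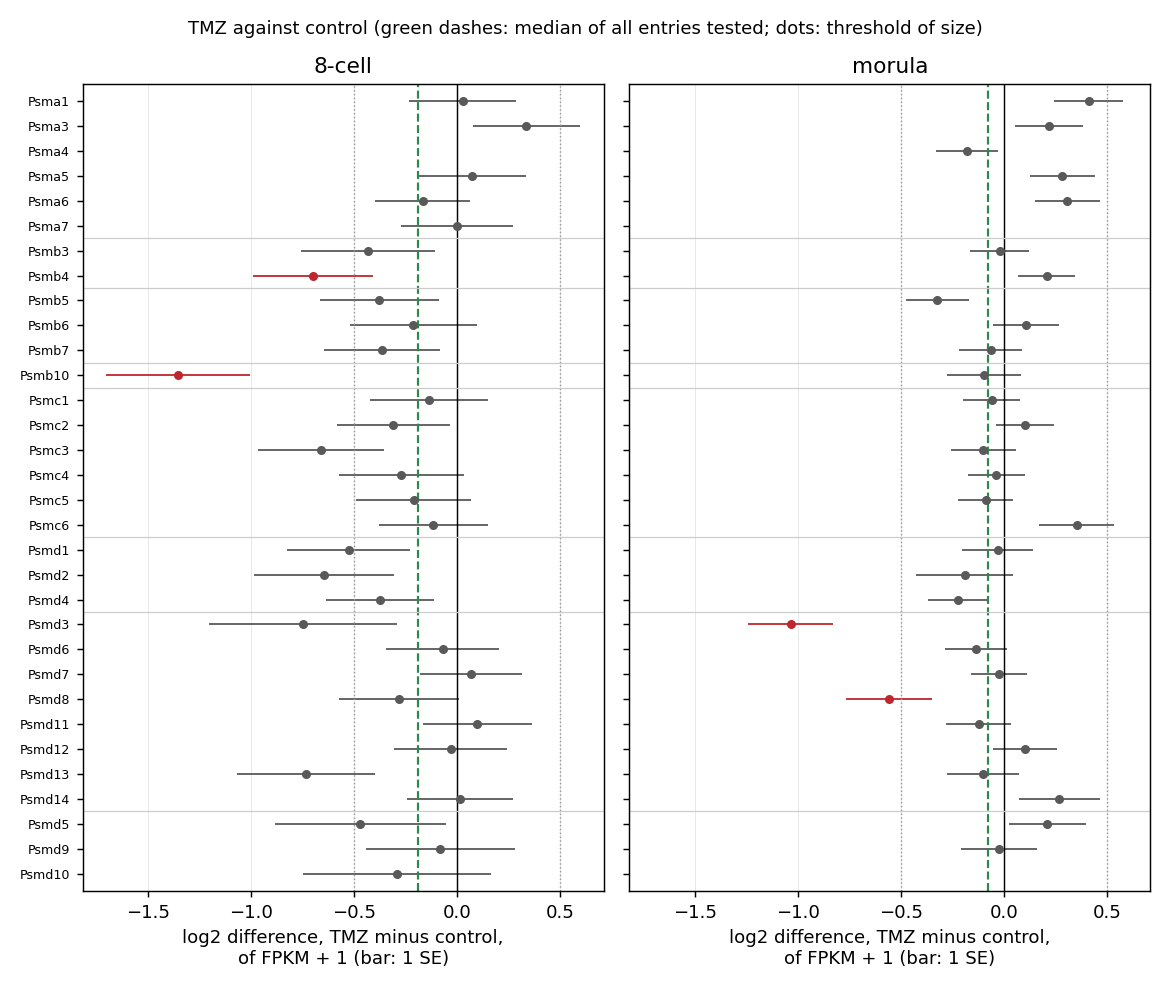
Log2 fold change (TMZ minus control, of FPKM + 1) of each tested member with 1 SE from limma, at the 8-cell stage (left) and the morula stage (right). Red marks called genes, the green dashed line the median of all rows (-0.19 and -0.08), and dotted lines a size of 0.5. Of the 8-cell points 24 of 31 lie below 0, or 16 of 31 after scaling by median ratios, and Psmb10 lies lowest at -1.35.

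In morulae, 2 lid subunits were lower in TMZ and no member was higher. The 2 of 30 members (6.67%) compare with 10.7% of all 9685 rows called lower, and 7.16% of all rows were higher. No member passed a limma adjusted p of 0.05, as did 3 rows (0.031%), while 3 members had P under 0.05 without adjustment, beside 19.6% of all rows. Voom on recovered fragment numbers called the same 2 genes.

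Psmd3, the structural lid subunit, fell most. It had 34.1 and 31.9 FPKM in control and 18.2 and 13.3 FPKM in TMZ, with no overlap. The log2 fold change was -1.04 ± 0.21 (SE, limma adjusted p = 0.161). The gene lies on GRCm39 chromosome 11 from 98573362 to 98586812 on the plus strand, and 2.39% of its exonic stretches occur elsewhere. Psmd3 was called lower whichever morula library was left out. At both stages its log2 fold change was below 0, and the difference between stages was -0.29 ± 0.55 (SE, limma adjusted p = 0.961).

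Psmd8, another lid subunit, on chromosome 7 from 28873612 to 28880135, had 219.6 and 231.3 FPKM in control and 185.0 and 125.9 FPKM in TMZ. Both TMZ values lay below both controls, with TMZ 2 lower than TMZ 1. The log2 fold change was -0.56 ± 0.21 (SE, limma adjusted p = 0.224). The call was lost without TMZ 2, where the log2 fold change was -0.28. It was also lost with values between -0.60 and -0.46 when control 1 or control 2 was left out, after scaling by median ratios, without the filter, or with all 8 libraries in 1 fit.

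Alpha ring genes lay mostly above the controls. In 4 of its 5 matched genes both TMZ libraries lay above both controls (80.0%), against 22.3% of all rows, and the median log2 fold change was 0.28. That median was 0.14 without control 2 and 0.43 without control 1. Psma1 had 281.8 and 221.4 FPKM in control and 322.1 and 343.3 FPKM in TMZ. Its log2 fold change of 0.41 ± 0.17 (SE, limma adjusted p = 0.250) missed the size threshold, and it was called higher after median-ratio scaling and without control 1. Psma6 had a log2 fold change of 0.31 ± 0.16, Psma5 of 0.28 ± 0.16 and Psma3 of 0.22 ± 0.16 (SE). In these 4 genes control 2 was the lowest library. Psma4, matched only in morulae, had 265.5 and 259.7 FPKM in control and 249.0 and 216.0 FPKM in TMZ.

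The beta ring held both directions. Psmb5 had 212.5 and 234.7 FPKM in control and 190.6 and 167.0 FPKM in TMZ, the third lowest log2 fold change among members, which did not pass (log2 fold change -0.32 ± 0.15, SE, limma adjusted p = 0.294). Psmb6 had 377.2 and 465.5 FPKM in control and 470.5 and 434.5 FPKM in TMZ, and Psmb7 had 75.5 and 73.1 FPKM in control and 69.1 and 72.9 FPKM in TMZ. Psmb6 overlapped between groups, and both TMZ values of Psmb7 lay below both controls. Neither was called. Psmb4 had 291.0 and 284.9 FPKM in control and 324.9 and 340.9 FPKM in TMZ, both above the controls, opposite to its order at the 8-cell stage. Psmb10 had 15.7 and 16.0 FPKM in control and 14.0 and 15.5 FPKM in TMZ, a log2 fold change of -0.10 ± 0.18 (SE).

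Among the 19S ATPases, Psmc6 had 248.7 and 189.3 FPKM in control and 261.5 and 294.6 FPKM in TMZ (log2 fold change 0.35 ± 0.18, SE, limma adjusted p = 0.316). The other 5 (Psmc1, Psmc2, Psmc3, Psmc4 and Psmc5) lay between -0.10 and 0.10. Of all rows, 4.96% at the 8-cell stage and 10.7% in morulae were called lower, and 1.35% and 7.16% higher. For 5 genes a count of 0 lies near such shares. None of the 5 members with the TGACNNNGC core was called at either stage. Their log2 fold changes in TMZ at the 8-cell stage and in morulae were -0.38 and -0.32 for Psmb5, -0.21 and 0.11 for Psmb6, -0.12 and 0.35 for Psmc6, -0.03 and 0.10 for Psmd12, and -0.08 and -0.02 for Psmd9.

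Over all 30 tested members the morula median was -0.03, beside -0.08 over all rows. In 9 members (30%) both TMZ libraries lay below both controls, against 33.3% of all rows, and in 8 (26.7%) both lay above, against 22.3%. The TMZ libraries differed from each other by a median of 0.105 on the log2 scale over the members and by 0.218 over all rows.

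The TMZ comparisons of the stages share no library. Of 29 members tested at both, 16 (55.2%) were below 0 at both stages, against 44.7% of 7603 genes, and 4 (13.8%) above 0 at both, against 16.4%. After scaling by median ratios these counts were 8 and 12 of 29, so the split of directions turns on the scaling. The difference between the TMZ effects was itself tested in limma over all 8 libraries. No member passed an adjusted p of 0.05, as did 0 of 8270 genes, and 2 members had P under 0.05 without adjustment, beside 7.85% of all genes. These were Psmb10, whose TMZ effect was higher in morulae by 1.26 ± 0.34 on the log2 scale (SE, limma adjusted p = 0.401), and Psmb4, higher by 0.91 ± 0.32 (SE, limma adjusted p = 0.513). A fall confined to the 8-cell stage was therefore not established for either gene.

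Levels were next set side by side between stages. Each stage has its own table, so a difference between tables cannot be told from one between stages, and no test was made. A gene was counted when both morula libraries lay on one side of both 8-cell libraries and mean log2(FPKM + 1) differed by more than 0.5. In control embryos 4 of 29 members (13.79%) were higher in morulae, against 11.4% of 8449 genes, and none was lower, against 19.4%. The median difference of the members was 0.18, beside -0.07 over all genes, and it was 0.096 without 8-cell control 2 and 0.26 without 8-cell control 1. Further, 23 of 29 members lay above 0 (79.3%), against 43.9% of all genes. After median-ratio scaling over the 8 libraries, the differences of Psmb5 and Psmc4 also passed 0.5 in control, at 0.57 and 0.55.

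The 4 genes were Psmd2, Psmd8, Psmd3 and Psmc3, all of the 19S particle. Psmd2, a scaffold of the base, had 37.4 and 24.6 FPKM in 8-cell controls and 56.0 and 46.6 FPKM in morula controls (difference 0.73). Psmd8, described above, went from a mean of 135.8 to 225.4 FPKM (0.73), Psmd3 from 22 to 33 FPKM (0.68) and Psmc3 from 65.0 to 102.6 FPKM (0.67). The 8-cell controls of Psmd3 lay at 30.8 and 13.2 FPKM, so its difference is not well fixed, and without 8-cell control 2 the count of higher members was 2. All 6 ATPases lay above 0, with a median of 0.37, and in 5 of them both morula controls lay above both 8-cell controls, as in 22.2% of all genes.

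The largest downward differences in control stayed under 0.5 in size. Psmd5, a chaperone of base assembly, had 17.9 and 18.7 FPKM in 8-cell controls and 13.8 and 13.9 FPKM in morula controls (difference -0.38). Psmd14 had 239.1 and 274.5 FPKM at the 8-cell stage and 219.5 and 184.2 FPKM in morulae (-0.35). For Psmb10 the difference was -0.28. In these 3 genes and in Psmb7 (-0.17) both morula controls lay below both 8-cell controls, 4 of 29 members beside 32.6% of all genes.

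In TMZ embryos 12 of 29 members (41.38%) were higher in morulae, against 17.5% of 8032 genes, and none was lower, against 12.9%. The 12 comprised 4 ATPases (Psmc2, Psmc3, Psmc4 and Psmc6), 2 base subunits (Psmd1 and Psmd2), Psmd13 of the lid, and Psmb3, Psmb4, Psmb5, Psmb6 and Psmb10. Psmc3 differed most, from a mean of 40.1 to 95.6 FPKM (1.23), followed by Psmd2, from 19.1 to 45.6 FPKM (1.19), Psmb4 (0.98) and Psmb10 (0.98). Above 0 lay 25 of 29 members (86.2%), against 54.8% of all genes. The median was 0.45, beside 0.06 over all genes, and it was 0.64 without 8-cell library A and 0.30 without library B. These differences use the same TMZ libraries as the comparisons with control, so members that were low in 8-cell TMZ embryos stand higher here. After median-ratio scaling the TMZ differences of Psmb3, Psmb5 and Psmb6 fell under 0.5, at 0.44, 0.45 and 0.45. That scaling raised every member's difference in control and lowered it in TMZ, so the control and TMZ medians lay closer together. Their difference was not tested as such.

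**Figure D3:**
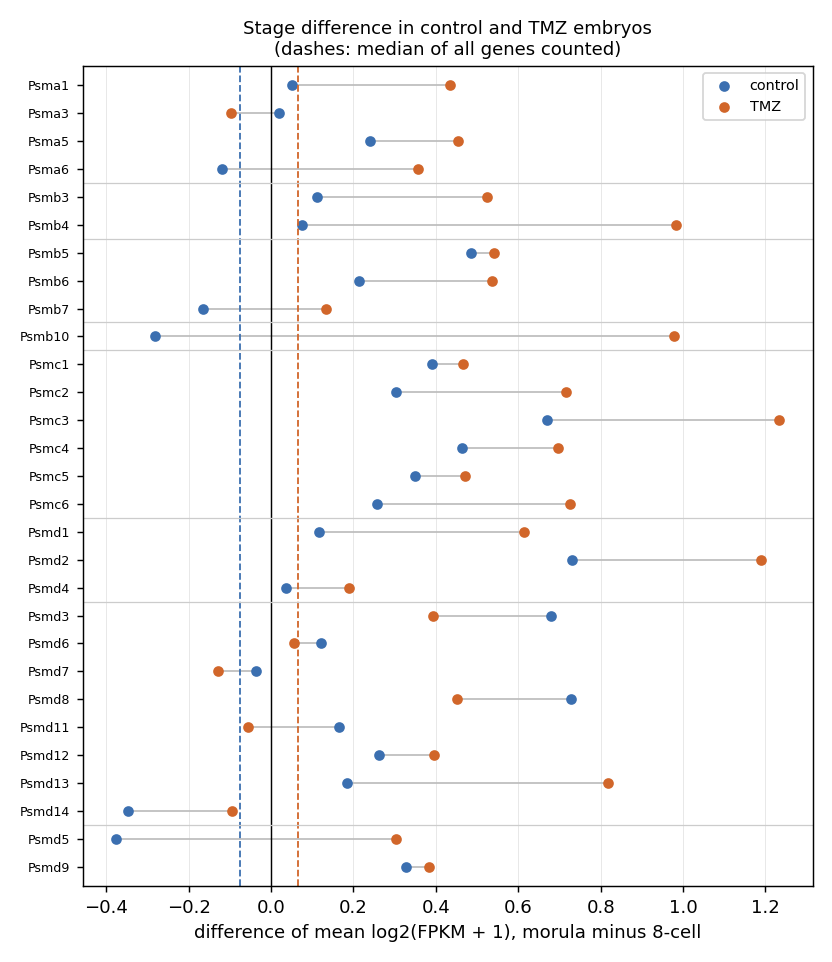
Difference of mean log2(FPKM + 1), morula minus 8-cell, for the 29 members counted in both tables, in control (blue) and TMZ embryos (orange), 2 libraries for each mean. Dashed lines are the medians of all genes counted (-0.07 in control, 0.06 in TMZ). All 6 ATPase genes (Psmc) lie above 0 in both.

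Summed over the 31 members found in both tables, proteasome mRNA came to 6421 and 6332 FPKM in the 8-cell controls and to 6227 and 5349 FPKM in TMZ libraries A and B. In morulae the sums were 7299 and 6877 FPKM in control and 7436 and 7570 FPKM in TMZ. Library B thus held the lowest sum, and all 4 morula sums lay above all 4 at the 8-cell stage. As shares of the FPKM of all genes found in both tables, the sums ranged from 1.35% to 1.96%.

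The balance of core and cap genes was compared by the ratio of their sums. The 9 constitutive 20S genes summed to 0.978 and 0.899 times the 17 genes of 19S subunits in morula controls and to 1.09 and 1.14 times in morula TMZ libraries, without overlap. At the 8-cell stage the ratios overlapped, at 1.0 and 1.11 in control and 1.02 and 1.10 in TMZ. The 20S sums leave out Psma2, Psma4, Psma7, Psmb1 and Psmb2, which were not matched in both tables. Whether a ratio lies above or below 1 therefore depends on which genes were matched. Psma6 and Psma5 weigh heavily in these sums. With 2 libraries a group, an exact two-sided permutation test cannot go below 0.333, so no p is given.

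**Figure D4:**
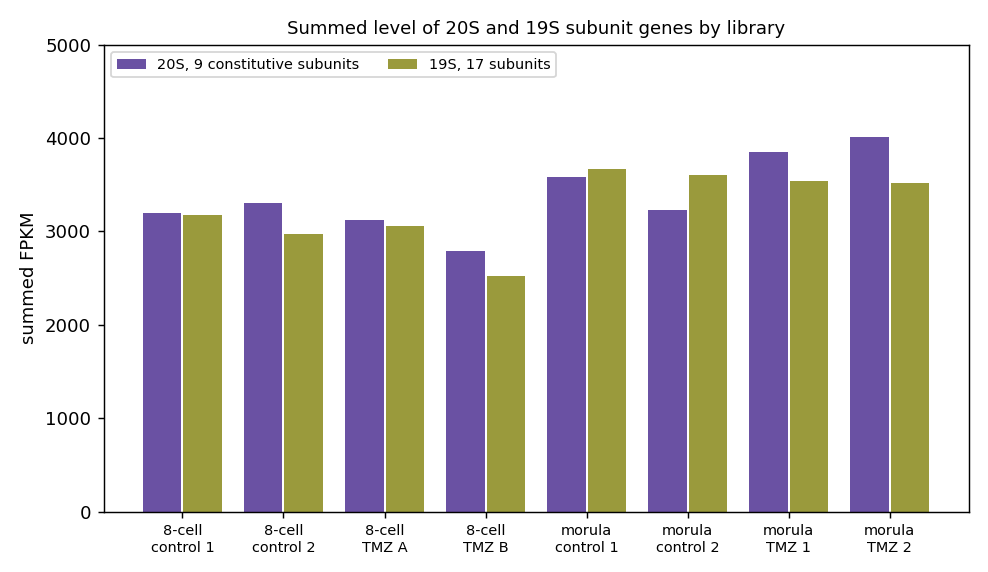
Summed FPKM of the 9 constitutive 20S subunit genes (purple) and of the 17 19S subunit genes (olive) found in both tables, 1 pair of bars for each library. The 20S bar exceeds the 19S bar in both morula TMZ libraries and lies below it in both morula controls. Psma2, Psma4, Psma7, Psmb1 and Psmb2 are not in the 20S bars, so which bar is taller depends on the genes matched.

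Other genes of the pathway were taken from a list of 33 regulators, assembly factors and shuttles. At the 8-cell stage 25 were tested and none was called, by limma or by voom. Of all rows, limma called 4.96% lower and 1.35% higher. No regulator had P under 0.05 in limma without adjustment, beside 6.31% of all rows, and the median was -0.23, beside -0.19. In morulae 24 were tested, and the median was -0.12, beside -0.08 over all rows. None was higher, against 7.16% of all rows, and 3 (12.5%) were lower, against 10.7%. Of these, 2 are described. Rad23b, which carries ubiquitinated substrates to the proteasome, had 14.9 and 14.9 FPKM in control and 8.87 and 8.56 FPKM in TMZ (log2 fold change -0.71 ± 0.18, SE, limma adjusted p = 0.167). Zfand2a, a stress-induced proteasome partner, had 14.3 and 16.6 FPKM in control and 9.09 and 9.24 FPKM in TMZ (-0.69 ± 0.19, SE). In neither did the groups overlap.

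Nfe2l1, the transcription factor for proteasome genes, was low, with 2.97 and 1.34 FPKM in 8-cell controls and 0.829 and 2.12 FPKM in TMZ libraries A and B. In morulae Nfe2l1 had 1.76 and 2.25 FPKM in control and 0.908 and 1.64 FPKM in TMZ, without overlap (log2 fold change -0.42 ± 0.25, SE, limma adjusted p = 0.380). Pomp, the chaperone of 20S assembly, overlapped between groups, at 95.8 and 112.2 FPKM in morula controls and 108.0 and 115.6 FPKM in TMZ. Adrm1, the ubiquitin receptor of the 19S particle that does not carry a Psmd symbol, had 149.2 and 145.7 FPKM in morula controls and 121.2 and 101.0 FPKM in TMZ (log2 fold change -0.41 ± 0.16, SE, limma adjusted p = 0.237), under the size threshold.

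Some markers of the embryo were separated between TMZ and control at each stage. At the 8-cell stage Cdh1 lay between 5.35 and 8.88 FPKM in control and between 2.50 and 5.13 FPKM in TMZ, and Tfap2c and Cdx2 were also lower without overlap. Cdx2 was near the filter, at 0.71 to 1.10 FPKM in control, and 29.6% of all rows were lower without overlap. Krt18 was higher, between 8.13 and 12.7 FPKM in TMZ against 4.24 to 7.94 FPKM in control, as were 8.09% of all rows without overlap. The other matched embryo markers overlapped. The summed level of the 5 oocyte markers was 30.1 to 35.6 FPKM in control and 21.4 to 27.7 FPKM in TMZ. Among them Zp3, Gdf9 and Bmp15 overlapped between groups. Oosp1 lay at 5.64 to 13.9 FPKM in control and 3.44 to 4.44 FPKM in TMZ, and Zp2 at 1.38 to 1.47 and 0.43 to 1.31 FPKM. The part of these differences in the values of Psmb10 and Psmb4 was not tested.

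In morulae the markers moved in both directions. Pou5f1 lay between 30.2 and 42.4 FPKM in morula controls and between 11 and 19 FPKM in TMZ, and Krt8 between 19.5 and 22.7 FPKM and between 6.43 and 11.2 FPKM. Cdx2, Nanog, Cdh1 and Tfap2c were also lower without overlap, and Krt18 overlapped. Of all morula rows, 33.3% were lower without overlap and 22.3% were higher. Dppa3 was higher, between 14146 and 17623 FPKM in TMZ against 10840 to 13228 FPKM in control, and so was Sall4, between 56.8 and 78.3 FPKM against 41.9 to 48.1 FPKM. Of 9 matched embryo markers the summed level was 11054 to 13448 FPKM in control and 14314 to 17795 FPKM in TMZ morulae, nearly all of it Dppa3. The part of these differences in the values of Psmd3, Psmd8 and the alpha ring was not tested. FPKM is scaled to the library total, so the number of cells does not show in it. In whole-embryo libraries a smaller share of expressing cells and less RNA per cell cannot be told apart. The study reports delayed development of TMZ embryos. Psmd3 and Psmd8, lower in TMZ morulae, were higher in control morulae than in control 8-cell embryos (differences 0.68 and 0.73). Psmd2 and Psmc3 were also higher there and were not called in TMZ morulae. An effect of TMZ on these genes and a less advanced stage cannot be told apart.

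The members just inside and outside the posterior threshold were Psmb5 (0.959 and 0.957) and Psmd14 (0.965 and 0.963) on the inside, and Psma7 (0.944), Psma4 at the 8-cell stage (0.940), Psmb9 (0.935) and Psmd10 in morulae (0.906) on the outside. The row nearest to Psmd10 in morulae had 22.2 and 25.4 FPKM in control and 34.6 and 51.9 FPKM in TMZ, and Psma7 had 396.3 and 445.8 FPKM in control and 361.0 and 441.5 FPKM in TMZ. Psma2 followed at posteriors of 0.892 and 0.889. Its nearest row had 267.4 and 263.2 FPKM in 8-cell controls and 298.2 and 203.2 FPKM in TMZ. In morulae it had 255.9 and 235.6 FPKM in control and 276.3 and 317.4 FPKM in TMZ. Rows nearest to Psmb2, a core subunit, had at most 0.356 FPKM in any library of both stages, at posteriors of 0.885 and 0.884. Psmb3 and Psmb4 had 8-cell means of 201.1 and 222.8 FPKM. Whether a wrong match lies behind the low Psmb2 values was not tested.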

How the data were processed

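Per the labels and the methods of the study, the authors trimmed reads with fastp (0.23.4), aligned them to GRCm39 with STAR (2.7.9a), counted fragments with featureCounts (2.0.6) and deposited FPKM values, 1 table per stage, without gene names. The annotation release and strand setting are not given in the sources used here. FPKM values are whole multiples of 1 fragment's worth, which gave library totals and gene lengths (solved for 94.2% and 95.1% of rows); fragment numbers are the smallest the values allow. Rows were aligned in Ensembl order to GENCODE vM39 exonic lengths with a pair hidden Markov model (numba 0.67.0) and kept at a posterior of at least 0.95. This matched 25415 of 31899 and 22720 of 29202 rows. In simulation 99.45% and 99.46% of matches were right. The simulated rows followed the fitted model and the same annotation, so errors from a different annotation release could not show.

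TMZ and control were compared with limma (3.58.1, R 4.3.3; trend) on log2(FPKM + 1), rows with a mean of at least 1 FPKM, with Benjamini-Hochberg adjustment over all rows. The study's DESeq2 test was not repeated, because the unit is FPKM. Every member is named. Values per library are given for called members, the 3 largest rises and falls, the highest and lowest members, and the catalytic, inducible and testis subunits. Members and lists were chosen with earlier results of these data known. The main fits were unpaired. Deviations of same-numbered morula libraries from their group means correlated at 0.076, which with 2 libraries a group does not settle whether they are paired. Alternatives were another pseudocount, filters, median-ratio scaling, voom, other posteriors, all libraries in 1 fit, a replicate block, and each library left out. The values of 1 regulator gene are not reported here.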

Additional observations from a re-analysis of the deposited data

How the results depend on the processing

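At the 8-cell stage the count of 2 lower members was 1 after median-ratio scaling, 6 with all 8 libraries in 1 fit (Psmb10, Psmb4, Psmc3, Psmd1, Psmd2 and Psmd13, beside 10.6% of all rows) and 1 to 7 when a library was left out (beside 1.93% to 15.4% of all rows), and the median of -0.27 became -0.0195 after scaling and -0.428 to -0.0119 when a library was left out. The count of 0 regulators was 1 lower without a filter and with all 8 libraries, and 0 to 1 in either direction when a library was left out. In morulae the count of 0 higher members was 1 after scaling (Psma1), 1 at a posterior of 0.85 (Psmd10, an alternative chosen after seeing the data) and 0 to 2 when a library was left out. The count of 2 lower was 1 after scaling, 1 without a filter, 1 with all 8 libraries and 1 to 2 when a library was left out. The morula median became 0.0638 after scaling, and higher regulators numbered 0 to 1 when a library was left out. In the stage comparison higher members numbered 2 to 6 in control when a library was left out, and the TMZ median was 0.30 to 0.64. The summed morula TMZ level of 7503 FPKM was 7408 FPKM as a share of all genes in both tables. The causes were not tested. The replicate block kept 2 lower and 0 higher members in morulae, and rows past an adjusted p of 0.05 went from 3 to 229. For the 8-cell stage no paired analysis was possible because its TMZ columns carry no number.

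With 2 libraries a group, limma's SEs for the members were 0.231 to 0.458 on the log2 scale at the 8-cell stage and 0.133 to 0.238 in morulae, and differences of about 2 SE did not pass either (Psmc3 and Psmd13 at the 8-cell stage). Rows without a confident match, and reads shared between a gene and its copies (up to 59.0% of exonic stretches in Psmb5), limit single genes.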
